A study of Mus musculus with 58 samples.

Results

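Cbx2, Cbx6, Cbx7, Cbx8, Phc1, Phc2, Phc3 and Scmh1 encode subunits of canonical Polycomb repressive complex 1 (PRC1). They were selected by symbol, and all 8 were found among the 24077 genes of the RNA-seq count table. The series holds 58 mouse samples, of which 18 are RNA-seq samples. The 14 libraries with columns in that table were used, and the 40 chromatin samples and the 4 RNA samples of morulae from crosses between B6 and PWK were not analysed here. Full-grown oocytes (FGO) of the strain B6.129 gave 2 wild-type control (CTR) and 2 Pcgf1/6 double knockout (KO) libraries. Morulae of the cross B6.129 x PWK gave 2 wild-type CTR and 2 double maternal knockout (matKO) libraries, and extraembryonic ectoderm (ExE), a trophoblast tissue, gave 2 CTR and 4 matKO libraries of the same cross. A maternal knockout embryo comes from an oocyte that lacks the genes and receives intact copies from the father. The labels do not state the age of the animals, the deletion driver or how many animals or embryos an RNA library pools, so p-values measure only the spread between these libraries, which may be technical.

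PRC1 places a ubiquitin on histone H2A through its RING subunits, and it exists in canonical and variant forms. In canonical PRC1 a CBX protein binds histone H3 trimethylated on lysine 27, the mark made by PRC2, and a PHC protein polymerises through its SAM domain and helps to compact chromatin. SCMH1 is a related SAM-domain protein found with these complexes. PCGF1 and PCGF6, whose genes were deleted here, belong to variant PRC1, which holds RYBP or YAF2 in the place of a CBX protein and has no PHC subunit. The comparisons ask which canonical subunits each stage expresses, whether their levels changed without Pcgf1 and Pcgf6, and which parental allele their reads came from.

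FGO libraries held 19805264 to 26364085 counts, morula libraries 1299715 to 1685510 and ExE libraries 3397585 to 4361832. FGO columns count whole genes, whereas morula and ExE columns count only reads assigned to a parent, so expressed genes without strain variants in their reads can be at 0. Levels are given as counts over these totals, scaled to CPM. The limit that a count of 0 allows, 3 counts, is 0.114 to 0.151 CPM in an FGO library, 1.78 to 2.31 in a morula library and 0.688 to 0.883 in an ExE library. The summed CPM of 12 oocyte genes was 18950 to 24986 in FGO, at most 261 in morulae and at most 3.67 in ExE, and that of 9 ExE genes was 1175 to 1450 in ExE, with Bmp4 at 0. In FGO KO the log2 change was −5.56 for Pcgf1 (edgeR adjusted p = 1.96e-05) and −1.14 for Pcgf6 (adjusted p = 0.0102). In morulae Pcgf1 had 1 assigned read in CTR, which was paternal, and 8 in matKO, all maternal, which is too few to check the labels, while the maternal share of Pcgf6 reads was 60.0% in CTR and 43.8% in matKO. In ExE matKO replicate 3, 35.1% of autosomal reads were maternal, against 50.5% to 51.5% in the other 9 embryo libraries. Maternal shares of that group are given with and without it, and other results without it only for some members. Of X-linked reads, 99.9%, 56.9%, 61.2% and 99.8% were maternal in ExE matKO replicates 1 to 4, against 95.8% and 96.4% in ExE CTR. The ExE matKO libraries thus differed among themselves in this share, and the cause was not tested.

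Cbx2 and Cbx8 are neighbours on chromosome 11 (mm10), at 119023019 to 119031275 and 119036303 to 119040913, with 5.03 kb between them. Cbx6 (79823898 to 79834333) and Cbx7 (79915804 to 79971143) lie near each other on chromosome 15. Phc2 (128654655 to 128752881) and Scmh1 (120405150 to 120530200) are on chromosome 4, Phc1 is on chromosome 6 (122317731 to 122340227) and Phc3 on chromosome 3 (30899295 to 30969479). The annotation has Npcd over the whole of Cbx6 and Apobec3 over one end of Cbx7. It also has the noncoding genes Gm35829 over one end of Cbx2 and Gm33712 within Phc2, neither of which is in the count table. The library kit does not mark the strand, so counts of these members may hold reads of the overlapping gene.

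Promoter windows of 300 bases, from 250 bases before to 50 after an annotated start, were taken from RefSeq (GRCm38.p6) for 7 of the 8 members, 10 windows in all. The E-box CACGTG, the sequence bound by MAX and its partner MGA, a subunit of the PCGF6 complex, was searched on both strands, and so was TTCCCGC, a core of E2F sites. A CACGTG match lay in a window of 4 members (Cbx6, Cbx8, Phc2 and Phc3), against 7.15% of all 32851 windows, and a TTCCCGC match in a window of 1 (Scmh1), against 4.60%. Of the 10 windows, 5 held at least 20 CpG dinucleotides, against 26.5% of all windows. Members with several windows had more chances of a match, so counts of members and shares of windows are unlike measures. The shares for matches were not taken from windows of like CpG number, and an excess of matches was not tested. The windows of Cbx8 and Phc3, whose FGO levels stood higher in both KO libraries, and of Scmh1, whose level differed most in ExE, are shown with matches in capitals.
Cbx8, chr11:119040864-119041163, minus strand: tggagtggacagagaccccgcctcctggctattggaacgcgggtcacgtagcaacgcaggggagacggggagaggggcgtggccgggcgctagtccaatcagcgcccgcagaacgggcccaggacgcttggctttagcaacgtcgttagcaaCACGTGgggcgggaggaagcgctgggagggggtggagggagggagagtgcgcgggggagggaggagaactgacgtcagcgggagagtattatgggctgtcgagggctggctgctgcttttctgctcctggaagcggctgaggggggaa
Phc3, chr3:30969366-30969665, minus strand: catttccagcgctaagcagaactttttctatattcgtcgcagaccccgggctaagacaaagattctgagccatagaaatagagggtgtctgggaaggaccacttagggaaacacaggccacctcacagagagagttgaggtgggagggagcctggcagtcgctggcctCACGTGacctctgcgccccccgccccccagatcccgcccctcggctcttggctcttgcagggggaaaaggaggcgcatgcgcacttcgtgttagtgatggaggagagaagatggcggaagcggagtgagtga
Scmh1, chr4:120405098-120405397, plus strand: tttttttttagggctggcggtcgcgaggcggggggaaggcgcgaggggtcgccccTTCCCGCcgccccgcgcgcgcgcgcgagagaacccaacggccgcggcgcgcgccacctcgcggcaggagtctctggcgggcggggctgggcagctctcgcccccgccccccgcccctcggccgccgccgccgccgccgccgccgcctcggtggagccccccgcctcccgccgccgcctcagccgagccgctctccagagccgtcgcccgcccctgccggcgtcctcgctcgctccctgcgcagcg
A match describes these letters and does not show that a factor binds there.

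**Figure D1:**
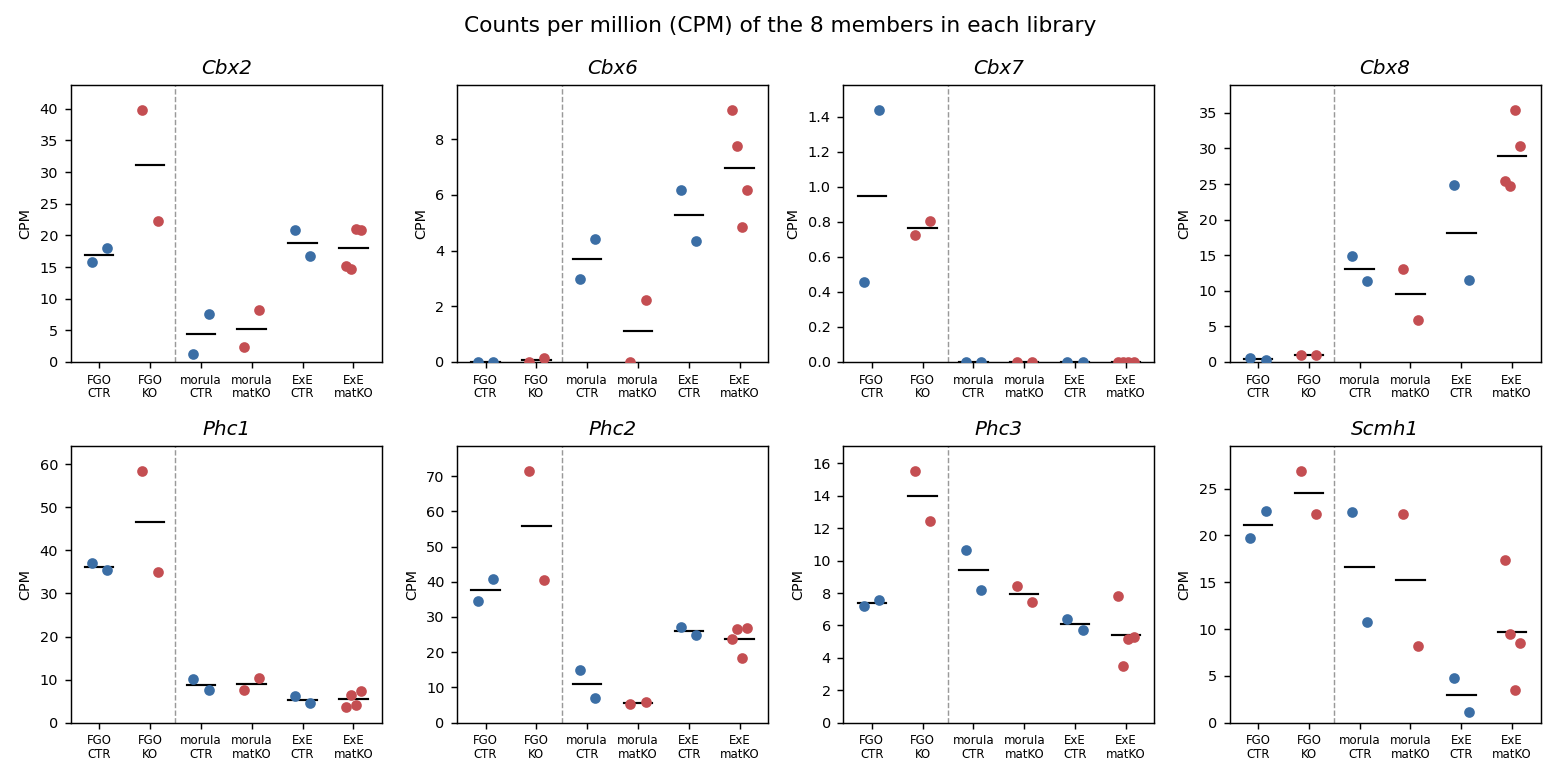
CPM of each member in every library (points) with the group mean (line), CTR in blue and KO or matKO in red, each panel with its own axis from 0. The dashed line separates FGO, counted per whole gene, from morulae and ExE, counted from allele-assigned reads. Cbx8 is under 1 CPM in FGO and above 5 CPM in every embryo library, and Phc1 is lower in every embryo library than in any FGO library.

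Reads of the CBX genes, whose proteins read the H3K27 mark, differed between the stages. In CTR libraries Cbx2 was the CBX member with the most reads in oocytes, Cbx8 had more reads than Cbx2 in both morula libraries, and both were well above the other CBX members in ExE. These are levels of reads per gene, not per length, and in embryos they hold only reads assigned to a parent. Their order within a library therefore does not give the order of transcript numbers. The statistics below are log2 ratios from edgeR with TMM scaling, which assumes that most genes do not differ; scaled to library totals instead, an alternative chosen after seeing the data, the median gene moved by 1.41 in morula over FGO and by −0.67 in ExE over morula. The value on library totals is therefore given beside each stage difference. Neither scaling corrects for the share of a gene's reads that can be assigned to a parent. Differences between FGO and the embryo stages hold this unknown share as well as any change in level.

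Cbx8 was at 0.569 and 0.272 CPM in the 2 FGO CTR libraries (15 and 7 counts), 14.8 and 11.3 CPM in morula CTR and 24.9 and 11.5 CPM in ExE CTR. Both embryo stages lay above the oocytes with no overlap, and morula and ExE levels overlapped. From FGO to morula Cbx8 rose by 3.52 on the log2 scale (SE 0.55, edgeR adjusted p = 0.000428), or by 4.93 on library totals (adjusted p = 7.98e-05). Between morula and ExE the rise of 1.13 (SE 0.45, adjusted p = 0.0410) was lost on library totals, at 0.46 (adjusted p = 0.400), and without morula CTR replicate 1 (adjusted p = 0.117), morula CTR replicate 2 (0.207) or ExE CTR replicate 1 (0.389). It was also lost with DESeq2 (1.14, adjusted p = 0.101) and on maternal counts only (0.93, edgeR adjusted p = 0.190).

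Cbx2 stood at 15.8 and 18.1 CPM in FGO CTR, 1.19 and 7.56 CPM in morula CTR and 20.9 and 16.7 CPM in ExE CTR. The morula libraries were the lowest and rested on 2 and 12 reads. Cbx2 fell from FGO to morula by 3.38 on the log2 scale (SE 0.52, edgeR adjusted p = 0.000394; −1.97 on library totals, adjusted p = 0.0114). It rose from morula to ExE by 2.77 (SE 0.61, adjusted p = 0.00180; 2.11 on library totals, adjusted p = 0.0146). The size of both changes rested on the 2 morula libraries. Without replicate 1 the log2 values were −2.50 and 1.90, without replicate 2 they were −5.23 and 4.58, and each of these passed.

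Cbx6 had no count in the 2 FGO CTR libraries, together 52080843 counts, which allows up to 0.0576 CPM. It had 2.97 and 4.41 CPM in morula CTR (5 and 7 reads) and 6.16 and 4.36 CPM in ExE CTR. Set against the limit for FGO, the mean in morula CTR was at least 64.0-fold higher on library totals and at least 24.1-fold higher with TMM factors. The gene did not pass the filter on low counts and was not in the reported fit; without that filter edgeR called it higher in morulae (adjusted p = 0.00262 with TMM, 0.000868 on library totals), as it did with all stages in 1 fit (0.000123). The morula and ExE groups overlapped, with a log2 difference of 1.17 (SE 0.61, edgeR adjusted p = 0.106; 0.50 on library totals, adjusted p = 0.473).

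Cbx7 was low in oocytes, at 0.455 and 1.44 CPM in CTR (12 and 37 counts), and had no read in any of the 10 embryo libraries. The limit for the 2 morula CTR libraries together is 0.917 CPM, close to the FGO mean of 0.947; with TMM factors the level in morulae would be at least 2.75-fold lower. Cbx7 was not in the reported fit of these stages. Without the filter on low counts edgeR called it lower in morulae with TMM (adjusted p = 0.0249). On library totals it was not called (adjusted p = 0.116, both settings together chosen after seeing the data), so the call depended on the scaling. Nor was Cbx7 called in the fits that left out a morula CTR library, at log2 differences of −7.16 without replicate 1 and −7.17 without replicate 2. In ExE CTR the limit is 0.350 CPM, which on library totals would make the level at least 2.71-fold lower than in FGO. Absence of transcript and absence of assignable reads cannot be told apart here.

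Of the 3 PHC members, which link complexes to each other, Phc1 and Phc2 had the most reads in oocytes. Phc1 stood at 37.0 and 35.3 CPM in FGO CTR, 10.1 and 7.56 CPM in morula CTR and 6.16 and 4.59 CPM in ExE CTR, and the 3 stages did not overlap. It fell from FGO to morula by 3.44 on the log2 scale (SE 0.26, edgeR adjusted p = 4.7e-06), or −2.03 on library totals (adjusted p = 0.000234). Between morula and ExE its log2 difference was −0.05 (SE 0.52, adjusted p = 0.937) with TMM and −0.72 on library totals (adjusted p = 0.241).

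Phc2 stood at 34.4 and 40.8 CPM in FGO CTR, 14.8 and 6.93 in morula CTR and 27.3 and 24.8 in ExE CTR, so that the morulae were the lowest and no stages overlapped. It fell by 3.19 from FGO to morula on the log2 scale (SE 0.32, edgeR adjusted p = 2.99e-05; −1.78 on library totals, adjusted p = 0.00174). It then rose by 1.92 to ExE (SE 0.40, adjusted p = 0.00117; 1.24 on library totals, adjusted p = 0.0238). The 2 values were −3.78 and 2.50 without morula CTR replicate 1 and −2.75 and 1.47 without morula CTR replicate 2. Phc2 and Cbx2 were the members that fell to the morula and rose to ExE under both scalings.

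Phc3 moved less, and its direction depended on the scaling. It stood at 7.17 and 7.58 CPM in FGO CTR, 10.7 and 8.19 in morula CTR and 6.40 and 5.73 in ExE CTR. From FGO to morula the log2 difference was −1.05 with TMM (SE 0.33, edgeR adjusted p = 0.0165) and 0.36 on library totals (adjusted p = 0.337); the first was also lost without FGO CTR replicate 1 (adjusted p = 0.0731), FGO CTR replicate 2 (0.0993) or morula CTR replicate 2 (0.0583). From morula to ExE it was 0.03 (SE 0.50, adjusted p = 0.963) with TMM and −0.64 on library totals (adjusted p = 0.274).

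Scmh1 was at 19.7 and 22.6 CPM in FGO CTR, 22.5 and 10.7 in morula CTR and 4.74 and 1.15 in ExE CTR. FGO and morula libraries overlapped, and both ExE libraries lay below them. From FGO to morula Scmh1 fell by 1.75 on the log2 scale (SE 0.34, edgeR adjusted p = 0.00140), which was lost on library totals, at −0.34 (adjusted p = 0.390). From morula to ExE it fell by 1.83 (SE 0.66, adjusted p = 0.0278; −2.50 on library totals, adjusted p = 0.00949), and this call was lost without morula CTR replicate 1 (adjusted p = 0.265) or ExE CTR replicate 2 (0.123); without ExE CTR replicate 1 the value was −3.09. It was also lost with DESeq2 (−1.84, adjusted p = 0.0654) and on maternal counts only (−0.70, edgeR adjusted p = 0.463), while paternal counts gave −3.32 (adjusted p = 0.000316).

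Of the 6 members tested from FGO to morula, 1 rose and 5 fell, in a comparison where 84.7% of all genes tested passed (34.3% higher, 50.4% lower). On library totals 4 of the 6 passed. The members' median log2 difference was −2.47, against −0.74 for all genes. Of the 7 members tested from morula to ExE, 3 rose and 1 fell, against 67.5% of all genes (27.8% higher, 39.7% lower), with a median of 1.13 against −0.28; 3 of the 7 passed on library totals. CPM did not overlap between the CTR groups for 7 of the 8 members in the first comparison, beside 93% of the 13845 genes tested. In the second this held for 5 of 8, beside 85.4% of the 9977 genes tested. The first count of members holds Cbx6 and Cbx7, which were not among the genes tested there, so it and the share are unlike measures.

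**Figure D2:**
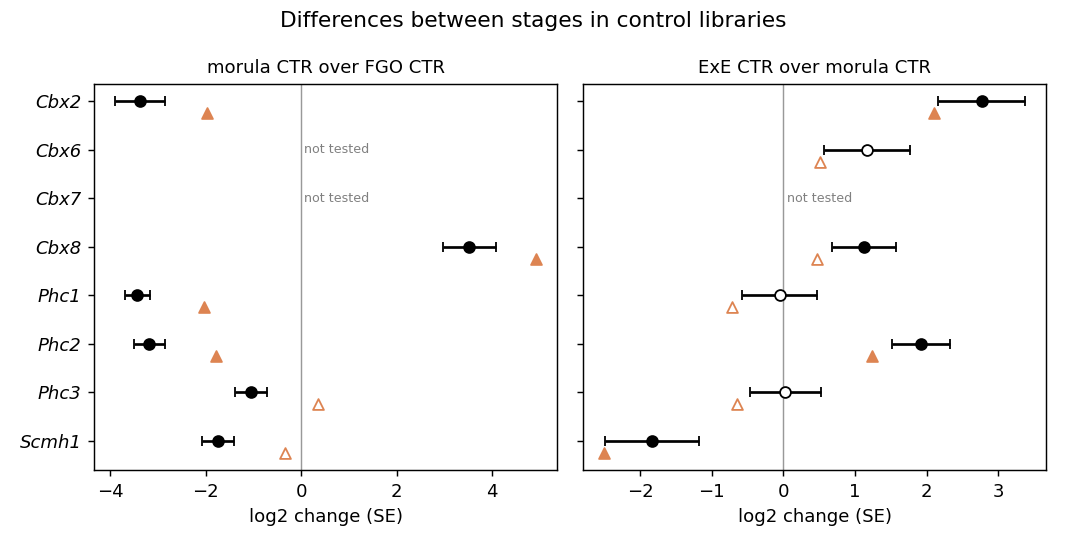
Log2 difference of each member between stages in CTR libraries, morula over FGO and ExE over morula. Circles with SE bars are edgeR values with TMM scaling and triangles the values on library totals, filled where the adjusted p was under 0.05. Cbx8 lies above 0 in both panels, Cbx2 and Phc2 change sign between the panels, and Phc3 changes sign with the scaling.

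Of the other canonical subunits, 3 of 6 rose from FGO to morula and 2 fell, beside the 84.7% of all genes that passed (on library totals 4 rose and 2 fell). From morula to ExE 1 of 4 tested rose and 2 fell, beside 67.5% of all genes; on library totals 0 rose and 2 fell. Rnf2, the RING subunit that ubiquitinates H2A, rose by 0.87 on the log2 scale (edgeR adjusted p = 0.000357; 0.19 on library totals, adjusted p = 0.221). Bmi1, a PCGF subunit of canonical PRC1, fell by 1.44 (adjusted p = 0.00349; −2.11 on library totals, adjusted p = 0.000614), a call lost on paternal counts only (−0.81, adjusted p = 0.0971). Ring1, the paralog of Rnf2, fell by 1.23 (edgeR adjusted p = 0.0433; −1.90 on library totals, adjusted p = 0.00622). The call for Ring1 was lost when any 1 of the 4 libraries was left out, with adjusted p from 0.0682 without ExE CTR replicate 1 to 0.151 without ExE CTR replicate 2, and also with DESeq2 (0.169), without the filter on low counts (0.0603), with the replicate block (0.0676), with all stages in 1 fit (0.151) and on paternal counts only (0.138).

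Among 13 variant PRC1 genes tested from morula to ExE, 6 rose and 4 fell, and among 11 PRC2 genes 3 rose and 5 fell, beside the 67.5% of all genes that passed. On library totals these counts were 3 and 7 for variant PRC1 and 2 and 7 for PRC2. Bcor, a corepressor of the PCGF1 complex, rose by 3.68 on the log2 scale (edgeR adjusted p = 6.18e-06; 3.01 on library totals, adjusted p = 0.00011) and Pcgf5 by 1.36 (adjusted p = 7.97e-06; 0.68 on library totals, adjusted p = 0.00137). Of the 3 HP1 genes, whose chromodomains read methylated H3K9 rather than H3K27, Cbx5 rose by 0.51 (adjusted p = 0.0195), which turned to −0.17 on library totals (adjusted p = 0.350). The call for Cbx5 was also lost without morula CTR replicate 1 (adjusted p = 0.267), morula CTR replicate 2 (0.0642) or ExE CTR replicate 2 (0.0741).

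In the oocyte knockout 0 of the 7 members tested passed, against 7.22% of all genes (972 of 13459). At an unadjusted p under 0.05 there were 2, Phc3 and Cbx2, beside 2897 of all 13459 genes. The median log2 difference of the 7 members was 0.45, against 0.00 for all genes. In CPM both KO libraries lay above both CTR libraries for Cbx2, Cbx8 and Phc3, and groups did not overlap for 50.2% of all genes (32.1% higher in KO).

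Phc3 was at 15.5 and 12.4 CPM in FGO KO, against 7.17 and 7.58 in CTR. Its log2 difference was 0.82 (SE 0.22, edgeR adjusted p = 0.0627), and DESeq2 gave 0.81 with an adjusted p of 0.0429. Cbx2 was at 39.8 and 22.3 CPM in KO against 15.8 and 18.1 in CTR, a difference of 0.75 (SE 0.24, edgeR adjusted p = 0.105). Without KO replicate 2, the lower of the pair, Cbx2 was at 1.02 (adjusted p = 0.0139) and Phc2 at 0.72 (adjusted p = 0.0311). Without KO replicate 1 instead, Cbx2 was at 0.40 (edgeR adjusted p = 0.326) and Phc2 at 0.11 (adjusted p = 0.794). With 1 KO library left, that library is assumed to vary like the CTR group.

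Cbx8 was at 0.954 and 0.909 CPM in FGO KO (21 and 18 counts) and differed by 1.04 (SE 0.58, edgeR adjusted p = 0.347). Phc2 was at 71.5 and 40.4 CPM in KO, of which only the first lay above the CTR libraries, with a difference of 0.45 (SE 0.22, adjusted p = 0.291). Phc1, at 58.5 and 34.9 CPM, differed by 0.25 (SE 0.20, adjusted p = 0.546) and Scmh1, at 26.9 and 22.3 CPM, by 0.11 (SE 0.19, adjusted p = 0.791). KO replicate 1 had the higher value of the KO pair for each of these members. Cbx7 went the other way within a wide error, at 0.727 and 0.808 CPM in KO and a difference of −0.40 (SE 0.63, adjusted p = 0.782). Cbx6 had 0 and 3 counts in KO and was not tested.

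Subunits of variant PRC1 did change in FGO KO. Of 16 variant PRC1 genes 3 rose and 2 fell, the latter being the deleted Pcgf1 and Pcgf6. Bcor rose by 2.69 (adjusted p = 0.0107) and Pcgf5 by 1.02 (adjusted p = 0.0147), the latter lost without CTR replicate 1 (adjusted p = 0.0553) or CTR replicate 2 (0.0506). No PRC2 gene passed of 11 tested, and none of the 3 HP1 genes passed. Of the PRC2 genes 3 had an unadjusted p under 0.05, beside 2897 of all 13459 genes.

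In morula matKO 0 of the 6 members tested passed, against 0.132% of all genes (12 of 9063). No member had an unadjusted p under 0.05, against 1791 of all genes, and none was called by DESeq2. Phc2 differed most, at 5.39 and 5.94 CPM in matKO (7 and 8 reads) against 14.8 and 6.93 in CTR, a log2 difference of −0.90 (SE 0.63, edgeR adjusted p = 0.460). Cbx6, with 0 and 3 reads in matKO against 5 and 7 in CTR, was not tested. These were the 2 members whose groups did not overlap, both lower in matKO. This held for 29.5% of the 9063 genes tested (53.1% in either direction), which do not include Cbx6.

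Cbx8 was at 13.1 and 5.94 CPM in morula matKO and differed by −0.42 (SE 0.56). Cbx2 was at 2.31 and 8.16 CPM and differed by 0.31, with the widest SE of the 6, 0.99. Scmh1 was at 22.3 and 8.16 CPM, against 22.5 and 10.7 in CTR, and differed by −0.09 (SE 0.61). Phc1 differed by 0.07 (SE 0.55) and Phc3 by −0.21 (SE 0.54). The adjusted p of the 6 members lay between 0.460 and 0.959 with edgeR. In data simulated at this depth, 34% of genes with a 2-fold change and 92% of those with a 4-fold change were recovered over 9124 genes. The changed genes were drawn from filtered genes of all levels, and 1 common spread was set for all genes. These shares therefore do not give the recovery of members with so few reads. Trophectoderm genes summed to 1013 to 1142 CPM in matKO and 1758 to 1929 in CTR. Sums of ExE genes (337 to 384 against 435 to 437 CPM) and decidua genes (1.48 to 4.62 against 9.45 to 23.7 CPM) were also lower in matKO. Those of oocyte genes (165 to 261 against 131 to 163 CPM) and ectoplacental genes (79.4 to 108 against 18.4 to 58.0 CPM) were higher. Prl8a2, Hand2, Wt1, Prl3d1, Prl2c2 and Gcm1 were at 0 in both groups. The part of these marker genes in the members' values was not tested.

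In ExE matKO 0 of the 7 members tested passed, as did 0% of all 8386 genes with edgeR, of which 1161 had an unadjusted p under 0.05; DESeq2 called 214 genes and none of the members. All 8 members' groups overlapped, Cbx7 with no read and not tested, while 23.8% of the 8386 genes tested did not overlap. Scmh1 was at 17.4, 9.49, 3.51 and 8.54 CPM in matKO against 4.74 and 1.15 in CTR. Only matKO replicate 3 lay within the CTR range. The log2 difference was 1.71 (SE 0.69, edgeR adjusted p = 0.318), between 1.05 without CTR replicate 2, which held 5 reads, and 2.98 without CTR replicate 1, and it was 1.98 without matKO replicate 3 (adjusted p = 0.123).

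Cbx8 was at 25.4, 24.7, 35.4 and 30.3 CPM in ExE matKO against 24.9 and 11.5 in CTR. Here 3 of the 4 matKO libraries lay above both CTR libraries, and the log2 difference was 0.66 (SE 0.30, edgeR adjusted p = 0.364). It was 1.26 without CTR replicate 1 (adjusted p = 0.152) and 0.23 without CTR replicate 2 (adjusted p = 0.973). Cbx6 ranged from 4.86 to 9.04 CPM in matKO and differed by 0.38 (SE 0.38). Cbx2 was at 15.2, 14.7, 21.1 and 20.9 CPM against 20.9 and 16.7, a difference of −0.09 (SE 0.26). Phc2 ranged from 18.4 to 26.8 CPM and differed by −0.15 (SE 0.23), Phc3 from 3.50 to 7.82 CPM by −0.18 (SE 0.40), and Phc1 from 3.67 to 7.36 CPM by −0.02 (SE 0.42), with adjusted p from 0.318 to 0.988 over the 7 members.

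The ExE groups also differed in marker genes of ExE and of other cell types. In matKO the summed CPM was 2369 to 4915 for 6 trophectoderm genes and 82.1 to 269 for 6 ectoplacental genes, against 7297 to 7679 and 394 to 526 in CTR. Dppa1 of the first list and Prl3d1, Prl2c2 and Gcm1 of the second were at 0 in both groups. The 9 ExE genes summed to 1264 to 1450 CPM in matKO against 1175 to 1207 in CTR. For 8 pluripotency genes the sums were 236 to 534 against 179 to 231 CPM, with Pou5f1 and Tdgf1 at 0 in both groups. The sums of 5 epiblast genes (20.5 to 58.9 against 1.15 to 8.77 CPM) and 6 visceral endoderm genes (5.40 to 21.0 against 1.38 to 2.84 CPM) were higher in matKO, with Otx2, Apoa1 and Hnf4a at 0 in both groups. The 4 decidua genes summed to 0.883 to 23.0 CPM in matKO and 1.15 to 3.79 in CTR, and all 5 blood genes were at 0. Their part in the members' values was not tested, and in such bulk tissue fewer cells of a type and less RNA per cell cannot be told apart.

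No list of other subunits held a called gene in morula or ExE matKO: 0 of 3 and 0 of 5 other canonical, 0 of 12 and 0 of 11 variant PRC1, 0 of 8 and 0 of 10 PRC2, and 0 of 3 HP1 genes in each. At an unadjusted p under 0.05 each of the first 3 lists had 1 gene in each stage and the HP1 list had 1 in morulae. Over all genes, 1791 of 9063 in morulae and 1161 of 8386 in ExE were under this threshold. The knockout effect was compared between stages in an interaction model. For ExE against morula 0 of 7 members passed (0.34% of all genes), and none had an unadjusted p under 0.05, against 1472 of all 11182 genes. For morula against FGO 0 of 7 passed (2.62% of all genes), and 1 had an unadjusted p under 0.05, beside 2339 of all 14719 genes.

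**Figure D3:**
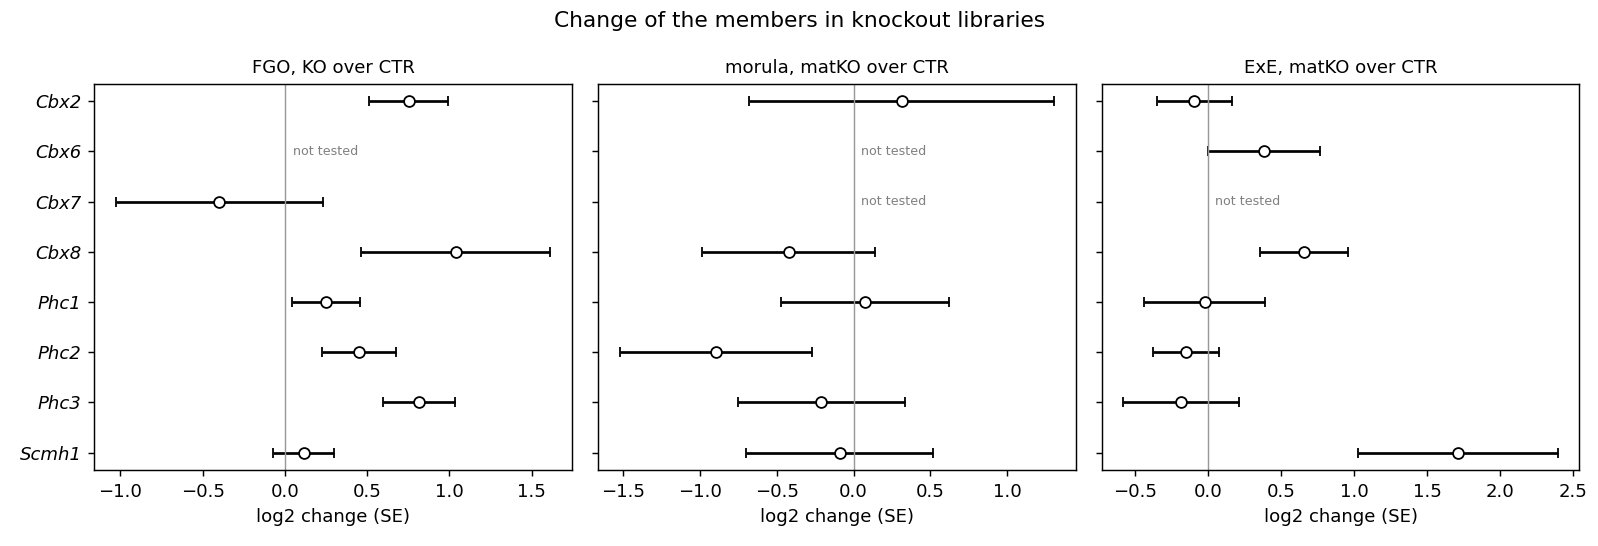
Log2 difference of each member between knockout and CTR libraries in FGO, morulae and ExE, from edgeR, with SE bars; open circles mark an adjusted p of 0.05 or more. Every circle is open, Phc3 and Cbx2 in FGO and Scmh1 in ExE lie farthest from 0 relative to their SE, and the morula errors are the widest for most members.

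The cross lets reads be assigned to the B6.129 mother or the PWK father. All embryo libraries used had the same direction of cross, so an effect of parent and an effect of strain cannot be told apart. In CTR libraries 0 of the members passed the test of maternal against paternal counts, nor had any an unadjusted p under 0.05. In morulae only 2 members had the mean of 20 reads that the test required, and 25.2% of all genes passed. Scmh1 had 14 maternal and 24 paternal reads in CTR replicate 1 and 4 and 13 in replicate 2, a maternal share of 32.7% (95% exact interval 20.7% to 46.7%) and a log2 ratio of maternal over paternal of −1.19 (SE 0.54, edgeR adjusted p = 0.177). Cbx8 was even, at 21 of 43 maternal reads (48.8%, 33.3% to 64.5%) and a log2 ratio of −0.12 (SE 0.56, adjusted p = 0.899). Phc3, too shallow for the test, had 12 of 18 and 11 of 13 maternal reads, together 74.2% (55.4% to 88.1%). Also too shallow were Phc1, with 15 of 29 maternal reads (51.7%, 32.5% to 70.6%), Phc2 with 15 of 36 (41.7%, 25.5% to 59.2%), Cbx2 with 4 of 14 (28.6%, 8.39% to 58.1%) and Cbx6 with 3 of 12 (25%, 5.49% to 57.2%), while Cbx7 had no read. The intervals hold only counting error, because the libraries carry no molecular identifiers and several reads can come from 1 molecule.

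In ExE CTR 6 members were tested, all with a log2 ratio below 0, and 0 passed against 31.9% of all genes. Cbx2 was farthest from even, with 35 of 88 and 32 of 73 maternal reads, a share of 41.6% (33.9% to 49.6%) and a log2 ratio of −0.56 (SE 0.27, edgeR adjusted p = 0.166). Cbx8 had a maternal share of 45.2% (37.2% to 53.3%), Phc2 of 46.6% (39.9% to 53.4%), Phc1 of 43.5% (28.9% to 58.9%), Cbx6 of 48.9% (33.7% to 64.2%) and Phc3 of 48.1% (34.0% to 62.4%). For each of these 5 members the interval held an even share, and both alleles gave reads in both libraries.

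Between CTR and matKO the allelic balance of the members did not pass the test. Passing were 0 of 1 in morulae (0.0393% of all genes) and 0 of 7 in ExE (0.0281%). Only Scmh1 in ExE had an unadjusted p under 0.05, beside 364 of all 7113 genes. Scmh1 in ExE differed most. It had 16 maternal and 4 paternal reads in CTR replicate 1 and 3 and 2 in replicate 2, a maternal share of 76.0% (54.9% to 90.6%). In matKO it had 23 and 48, 18 and 20, 3 and 10, and 8 and 21, a share of 34.4% (26.9% to 42.6%), or 35.5% (27.6% to 44.1%) without replicate 3. Every matKO library had fewer maternal than paternal reads, and both CTR libraries had more. The log2 shift was −2.38 towards the paternal allele (SE 0.77, edgeR adjusted p = 0.942), and it lay between −2.79 and −1.39 when single libraries were left out. In morulae its shift had the opposite sign, at 0.77 (SE 1.02, adjusted p = 0.922).

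Phc2 went towards the maternal allele in ExE matKO, with a share of 55.2% (50.0% to 60.4%), or 59.5% (53.7% to 65.2%) without replicate 3, against 46.6% in CTR, a log2 shift of 0.68 (SE 0.33, edgeR adjusted p = 0.947). Cbx8 had 45.1% maternal reads in matKO, or 51.0% (45.2% to 56.7%) without replicate 3, and a shift of 0.36 (SE 0.34). Phc1 had 29.6%, or 31.8% (20.9% to 44.4%) without replicate 3, and a shift of −0.71 (SE 0.65, adjusted p = 0.949). The shifts of the remaining members tested were 0.20 for Cbx2 (SE 0.40), −0.31 for Cbx6 (SE 0.64) and −0.17 for Phc3 (SE 0.71), with edgeR adjusted p from 0.976 to 0.995. Their maternal shares in ExE matKO were 40.4% for Cbx2, 41.1% for Cbx6 and 43.4% for Phc3. Without replicate 3 these shares were 44.8%, 42.7% and 50.0%. For comparison, the maternal share of Pcgf6, whose maternal copy is deleted, went from 62.0% (60.0% to 63.9%) in CTR to 36.3% (34.6% to 38.1%) in matKO. Without matKO replicate 3 the share in matKO was 40.1% (38.0% to 42.2%). The shift of −1.26 (SE 0.16, edgeR adjusted p = 0.00624) was not called without matKO replicate 3 (adjusted p = 0.136) or without CTR replicate 1.

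**Figure D4:**
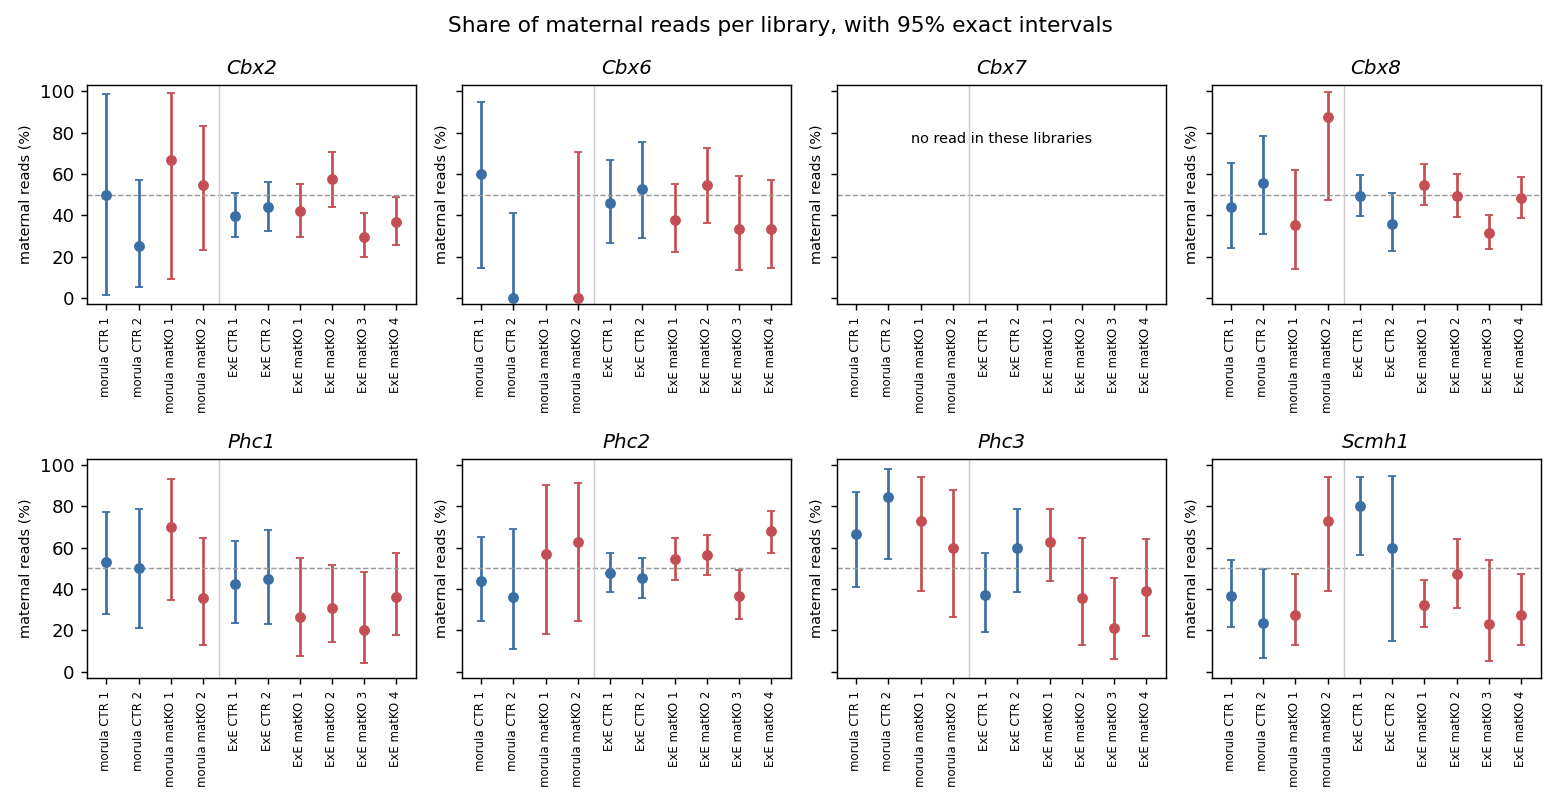
Maternal reads as a percentage of the allele-assigned reads of each member, per morula and ExE library, with 95% exact intervals; CTR in blue, matKO in red, and a dashed line at 50%. Libraries without a read have no point. Scmh1 lies above 50% in both ExE CTR libraries and below it in all 4 ExE matKO libraries, while most other intervals cross the line.

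The genes most like each member across the 10 morula and ExE libraries were ranked by Pearson's r of log2(CPM + 1) among 8429 genes with a mean of at least 5 CPM. For Cbx2 they were Rbbp4 (r = 0.96), a histone-binding subunit of PRC2 and other complexes, Phkg2 (0.95) and Bri3bp (0.95). For Phc2 they were Rabepk, Sgsh and Zfp667 (0.98 each), for Cbx6 Hdhd3 (0.98), Sp4 and Cfap36 (0.97 each) and for Cbx8 Cnpy3, Smc1a and Trp53rka (0.94 each). For Phc1 they were Rhpn2 (0.94), Zfp872 (0.92) and Scyl2 (0.91), for Phc3 Ptpn23 (0.94), Xndc1 and Scaf1 (0.92 each) and for Scmh1 Zswim1 and Ppcs (0.92 each). The libraries share 2 stages, their depths and the assignment of reads to alleles, and the best of so many genes reaches a high r in 10 libraries, so these values are a description. Cbx7, at 0 in every one of these libraries, has no such genes.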

How the data were processed

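RNA was read from SMART-Seq v4 cDNA in Nextera XT libraries, per the labels' protocols. The deposited table gives raw counts per gene, 1 column per FGO library and a maternal and a paternal column per morula or ExE library, per the file headers; these were summed for expression tests. The submitters' processing notes list STAR 2.7.3, RSEM 1.3.1 and the builds mm10 and dm6, without their roles; the rule of allele assignment is not given in the sources used here. The plan had assumed 1 total per library, and planned comparisons with the reciprocal crosses were not used here.

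Tests used edgeR 4.0.16 (TMM, filterByExpr, robust quasi-likelihood F test) on all genes, with Benjamini-Hochberg adjustment over all genes tested and calls at an adjusted p under 0.05. Allelic tests had a term per library, offsets from autosomal allele totals and a mean of at least 20 reads. DESeq2 1.42.0 was an alternative, as were other filters, scalings, alleles and leaving out each library. The fits were tested on simulated data. Intervals are Clopper-Pearson, 95%. Positions and promoters come from RefSeq (GRCm38.p6), matched by symbol for all 8 members (7 with a promoter window). The members, the lists of other genes and markers, and the tests were chosen with earlier results of these data known. The rule was to name every member in every comparison, Pcgf1 and Pcgf6, and 3 most similar genes per member, leaving out clone names. It also took up to 4 called genes per list of other subunits with the smallest p (only some are printed). Interaction results are given only as counts of members, and Cbx7, without a read in embryos, is not repeated for each comparison there. Some genes that this rule picks are withheld from the text.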

Additional observations from a re-analysis of the deposited data

How the results depend on the processing

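In FGO KO the number of members called rose from 0 to 2 without the filter on low counts (Cbx2, adjusted p = 0.0217, and Phc3, 0.0381), to 1 with DESeq2 and to 2 with the replicate block (Cbx2, 0.0325, and Phc3, 0.0215), and was 0 to 2 with single libraries left out. In ExE matKO it was 1 with the replicate block (Scmh1, log2 2.27, adjusted p = 0.00474). From morula to ExE it fell from 4 to 2 with DESeq2, 2 on maternal counts only and 2 to 3 with single libraries left out. Shared replicate numbers are not stated to mark a shared origin, and deviations of same-numbered libraries correlated at 0.254 in FGO, 0.152 in morulae and 0.0578 to 0.252 in ExE, so the block is given only here. The other knockout, stage, interaction and allelic counts of members stayed within 1.5 times of the value reported.

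Signs turned for Phc2 (0.20, maternal counts only) and Phc1 (0.20, paternal counts only; 0.0010 on library totals) in ExE matKO. From morula to ExE they turned for Phc1 (0.015 with all stages in 1 fit, 0.13 on paternal counts only), Phc3 (−0.67 on maternal counts only, −0.64 on library totals) and Cbx5 (−0.17 on library totals), and from FGO to morula for Phc3 (0.36 on library totals). In the ExE allelic shift they turned for Cbx2 (−0.048 without the correction of allele totals) and Phc3 (0.30 with the replicate block). Leaving out single libraries turned signs with these ranges: in FGO KO, Cbx7 −1.01 to 0.65 and Phc1 −0.044 to 0.48; in morula matKO, Cbx2 −0.84 to 2.13, Scmh1 −0.98 to 0.53, Phc1 −0.15 to 0.29 and Cbx8 −1.09 to 0.044; in ExE matKO, Cbx2 −0.20 to 0.023 and Phc1 −0.19 to 0.15; from morula to ExE, Phc1 −0.25 to 0.12 and Phc3 −0.16 to 0.16; in allelic shifts, Scmh1 in morulae −0.26 to 2.54, and Cbx2 −0.037 to 0.37 and Phc3 −0.86 to 0.48 in ExE. The cause was not tested. Allelic tests of CTR libraries alone were not run with a library left out, since 1 library leaves no residual degrees of freedom.

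Over all genes, calls in FGO KO went from 972 to 1630 without the filter, 2021 with the replicate block and 2029 without KO replicate 2. In morula matKO they went from 12 to 54 with DESeq2 size factors (27.8% higher, against 16.7%), 489 without the filter, 208 with DESeq2, 310 with the block, 166 in 1 fit of all stages, 68 on paternal counts, and 7 to 524 with single libraries left out. In ExE matKO they went from 0 to 112, 214, 923 and 35 under the filter, DESeq2, block and single-fit alternatives, 5 on maternal counts, and 0 to 6 with single libraries left out. For the interactions they went from 38 to 238, 192 and 550 (ExE against morula; 1 to 74 with a library left out) and from 386 to 791, 675 and 668 (morula against FGO; 124 to 558) without the filter, with DESeq2 and with the block. For allelic shifts they went from 3 to 9 at a minimum of 10 reads, 56 with the block and 0 to 3 with a library left out in morulae. In ExE they went from 2 to 10 without the correction of allele totals, 201 with the block and 1 to 11 with a library left out. Scaling to library totals moved the share of higher calls from 40.5% to 59.1% for morula over FGO and from 41.2% to 22.2% for ExE over morula. Between morula and FGO knockout effects, DESeq2 size factors moved the median by 0.16. Depth limits the morula values, where members had 2 to 38 reads in CTR libraries with any read.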
